A study of Homo sapiens with 16 samples.

Results

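The genes described are 9 that make, recycle, use or break down glutathione: CHAC1, CHAC2, GCLC, GCLM, GSS, GSR, GGCT, GPX2 and GPX4. They were taken by name from the 22395 genes with a probe set of their own, that is, a probe set with 1 gene symbol, and each of the 9 had exactly 1 such probe set. All 9 were among the 15676 genes bright enough to test, GPX2 only just, with a mean of 1.67 on the log2 scale against 1.65 for the dimmest tested gene. Its mean was 1.59 without its brightest array, one of DLD1 WT cells with glutamine, so it passed only through that group, and its values are given as a description with no test. It was left in the fit, and in counts out of 9 it stands among the genes not called. RNA was profiled on whole-transcript Affymetrix arrays from DLD1 and HCT116. Both are established lines from human colorectal carcinomas and carry a mutant and a wild-type allele of PIK3CA, the gene of a catalytic subunit of phosphoinositide 3-kinase. The Mut derivative of a line has lost the wild-type allele by knockout and the WT derivative has lost the mutant allele, so that every group, the WT cells too, carries a knocked-out allele. Cells of the 4 derivatives were kept for 24 h without glutamine (DLD1 Mut, DLD1 WT, HCT116 Mut and HCT116 WT without glutamine) or with it (the same 4 with glutamine), in DMEM with 10% dialyzed fetal bovine serum. Each of the 8 groups had 2 biological replicates, 16 arrays in all. Each genotype of a line is 1 derivative, so the remaining allele and any other difference between the 2 derivatives cannot be told apart. PIK3CA itself was not analysed here, so the genotypes are as labelled and were not checked.

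Glutathione is made from glutamate, cysteine and glycine, and glutamine is a main source of its glutamate in cultured cells. Glutamate cysteine ligase, with GCLC as its catalytic and GCLM as its modifier subunit, joins glutamate to cysteine, and glutathione synthetase, GSS, adds glycine. Glutathione peroxidases such as GPX2 and GPX4 use glutathione to reduce peroxides, and glutathione reductase, GSR, turns the oxidised form back with NADPH. CHAC1 and CHAC2 cleave glutathione in the cytosol to 5-oxoproline and cysteinylglycine, and GGCT, the gamma-glutamylcyclotransferase, releases 5-oxoproline from gamma-glutamyl amino acids. CHAC1 is known as a target of ATF4, which cells activate when amino acids run short, and GCLC, GCLM, GSR and GPX2 as targets of NRF2, the transcription factor of the oxidant response.

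Of the 9 genes, 6 had an entry in the RefSeq promoter table of build GRCh38.p14, and GSS, GSR and GGCT had none. The 250 bases before the start of CHAC1 (chr15:40953221-40953470, plus strand), CHAC2 (chr2:53767533-53767782, plus strand), GCLC (chr6:53545102-53545351, minus strand) and GCLM (chr1:93909431-93909680, minus strand) are shown, since the pairs CHAC1 and CHAC2 and GCLC and GCLM share a step of the pathway. These windows were chosen with the responses known, and a link between a motif and a response was not tested. Each is written 5′ to 3′ along the gene, and capitals mark a motif match.
CHAC1: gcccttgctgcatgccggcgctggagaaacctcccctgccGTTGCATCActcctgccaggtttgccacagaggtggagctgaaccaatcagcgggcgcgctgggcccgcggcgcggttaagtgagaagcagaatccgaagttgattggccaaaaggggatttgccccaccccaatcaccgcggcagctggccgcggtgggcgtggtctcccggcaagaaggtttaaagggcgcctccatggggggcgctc
CHAC2: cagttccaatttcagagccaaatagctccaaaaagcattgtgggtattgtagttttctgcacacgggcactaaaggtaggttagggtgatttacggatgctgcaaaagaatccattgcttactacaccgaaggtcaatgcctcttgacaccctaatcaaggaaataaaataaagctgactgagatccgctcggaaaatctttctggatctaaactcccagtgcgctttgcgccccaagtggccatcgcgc
GCLC: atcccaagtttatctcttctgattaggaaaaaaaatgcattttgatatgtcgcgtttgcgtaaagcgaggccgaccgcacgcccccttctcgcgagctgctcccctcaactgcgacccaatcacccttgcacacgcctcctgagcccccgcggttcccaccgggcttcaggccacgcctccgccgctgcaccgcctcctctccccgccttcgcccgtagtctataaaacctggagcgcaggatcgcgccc
GCLM: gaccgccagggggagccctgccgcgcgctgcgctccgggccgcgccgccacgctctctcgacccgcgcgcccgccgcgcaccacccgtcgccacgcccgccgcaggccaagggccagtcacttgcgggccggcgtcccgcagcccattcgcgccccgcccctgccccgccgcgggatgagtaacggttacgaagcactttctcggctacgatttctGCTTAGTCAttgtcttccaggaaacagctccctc
Matches were searched on both strands, with N for any base. The ATF4 response element, TGATGNAAN, was in the CHAC1 window on the opposite strand, from 210 to 202 bases before the start, and in 867 of 27305 promoter windows of that length (3.18%). The core of the antioxidant response element, TGACNNNGC, was in the GCLM window from 34 to 26 bases before the start and in that of GPX2 from 122 to 114 bases before it, both on the opposite strand, and in 3013 of 27305 windows (11%). No match overlapped another. Neither motif was in the windows of CHAC2, GCLC or GPX4. A match describes letters in a window, and binding was not measured.

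Values are the deposited intensities on a linear scale, of which the log2 was taken for tests, and an intensity is compared only within a gene because probe sets differ in brightness. Array medians ran from 3.57 to 3.70, and Pearson's r between the 2 arrays of a group was 0.991 to 0.993, taken over genes, which do not count as replicates. The median difference between replicates was 0.152 to 0.175 on the log2 scale. Of 8 epithelial markers, EPCAM (1387 to 2377), KRT19 (652 to 1435) and CDH1 (421 to 3085) were bright. KRT18 (66.9 to 138), CDX2 (38.2 to 282) and KRT8 (12.3 to 42.0) were dimmer, and LGALS4 (5.23 to 12.3) and VIL1 (2.72 to 9.29) dim. Of 4 leukocyte markers PTPRC, CD3E and LYZ stayed between 1.67 and 4.34 and CD68, a lysosomal protein also found in epithelial lines, ran from 23.1 to 219. Of 4 fibroblast markers COL1A2, DCN and LUM stayed between 1.63 and 3.98 and COL1A1 ran from 4.85 to 14.1. The summed log2 level of the leukocyte markers ran from 4.89 to 7.82 without glutamine and from 4.91 to 6.88 with it, and that of the fibroblast markers from 3.49 to 4.37 and from 3.67 to 4.02. CD68 rose by 0.62 ± 0.06 on the log2 scale on average over the derivatives when glutamine was withdrawn, with changes of -0.25 (not called) in DLD1 Mut, 0.59 in DLD1 WT, 1.20 in HCT116 Mut and 0.96 in HCT116 WT cells. COL1A1 was not called (0.06 ± 0.11). The part of these markers in the results was not tested. Differences are log2 changes with the SE of limma, tested in 1 fit over all arrays and genes in 13 comparisons, and a gene is called when its Benjamini-Hochberg adjusted p over all tested genes is under 0.05. The p-values rest on the spread between the 2 biological replicates of a group, pooled for each gene over all 8 groups and moderated across genes. In bulk RNA fewer cells of a kind and less RNA per cell cannot be told apart. Whether the arrays of 2 groups overlap is given as a description, and the share over all genes was not counted. With 2 arrays each, a gene that is not called can separate too, as GPX4 did in DLD1 WT cells (limma adjusted p = 0.505).

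**Figure D1:**
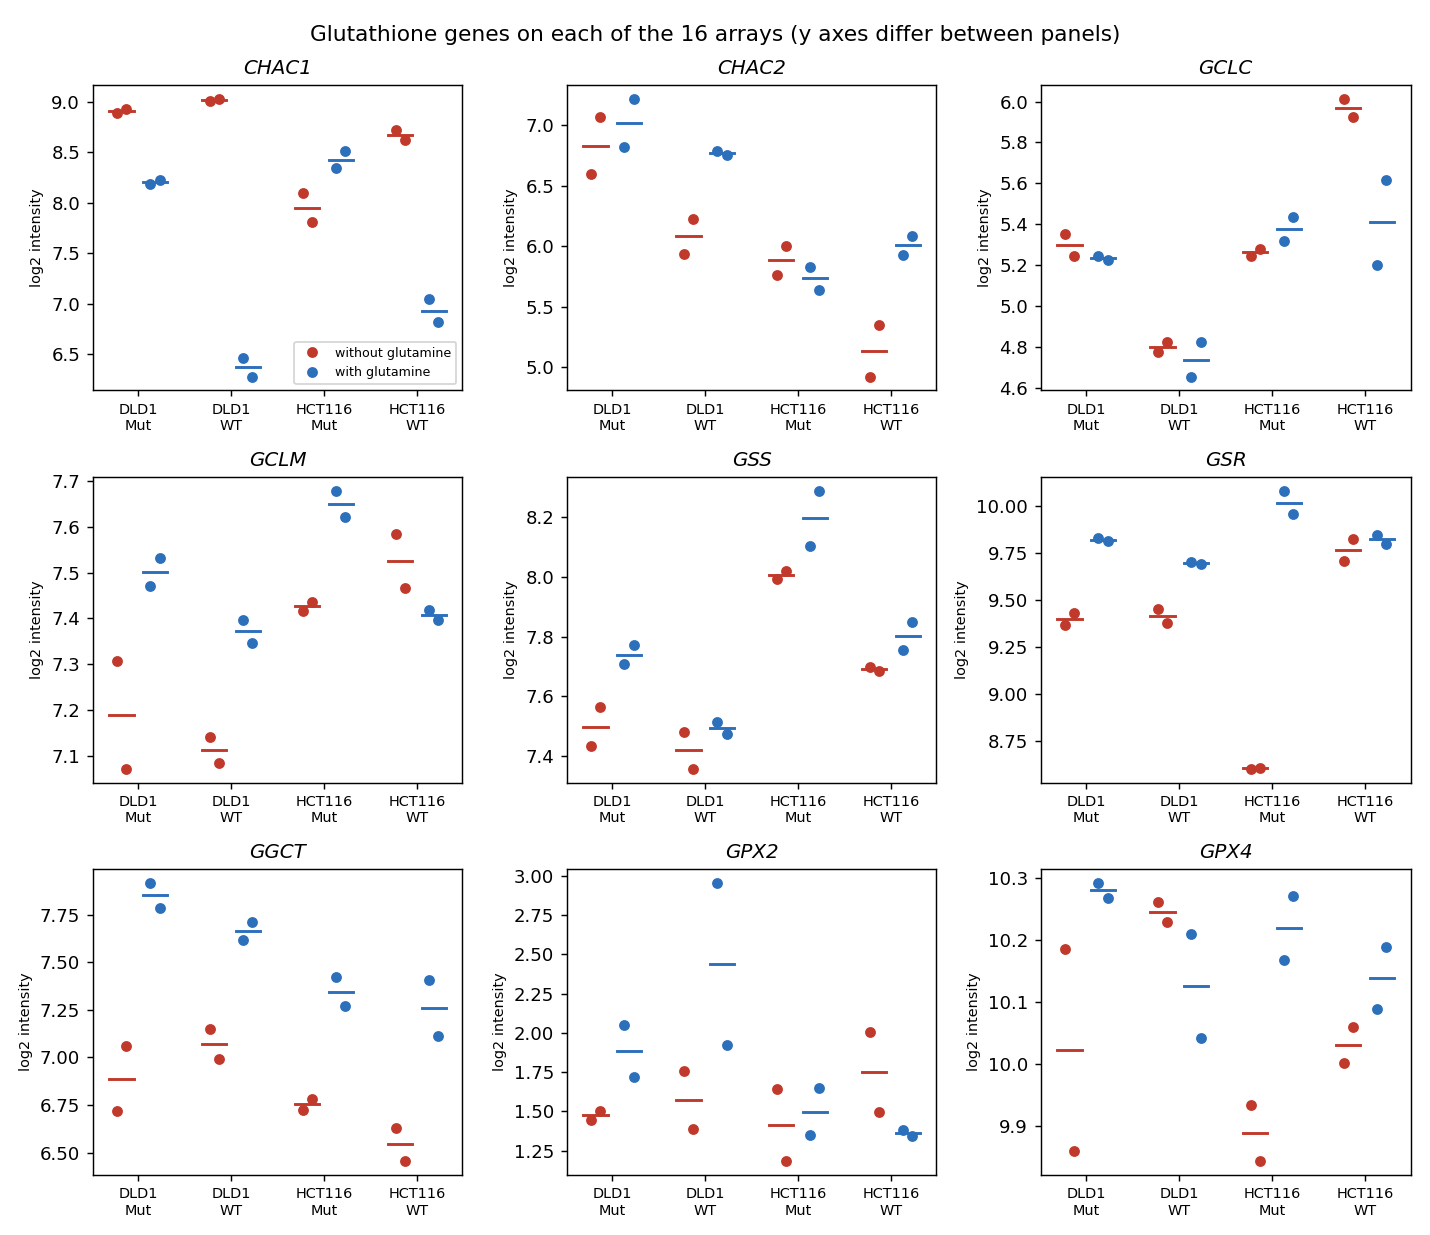
Intensity (log2 scale) of the 9 genes on each array, by cell line, PIK3CA genotype and glutamine, with 1 point per array and a bar at the mean of 2. CHAC1 and CHAC2 have the widest ranges of group means, 2.64 and 1.88 on the log2 scale, and GGCT is lower without glutamine in each derivative.

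The comparisons without and with glutamine show how the genes move when glutamine is withdrawn. Averaged over the 4 derivatives, CHAC1 rose 2.22-fold (log2 change 1.15 ± 0.06, 8 against 8 arrays, limma adjusted p = 1.41e-07), and GGCT, GSR, CHAC2, GCLM and GSS fell. In that comparison 24.3% of all tested genes were called higher and 23.5% lower, beside 1 and 5 of the 9. These counts are small and were not tested against the shares of all genes. The median log2 change of the 9 genes was -0.17, or -0.16 without GPX2, and that of all tested genes -0.0042. By derivative, 1 gene was higher and 3 lower in DLD1 Mut cells (16.8% and 16.8% of all genes), 1 and 3 in DLD1 WT cells (14% and 13%), 0 and 4 in HCT116 Mut cells (16.4% and 16.5%) and 2 and 2 in HCT116 WT cells (10.3% and 10.1%). GGCT was the only gene of the 9 called in the same direction in all 4 derivatives.

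**Figure D2:**
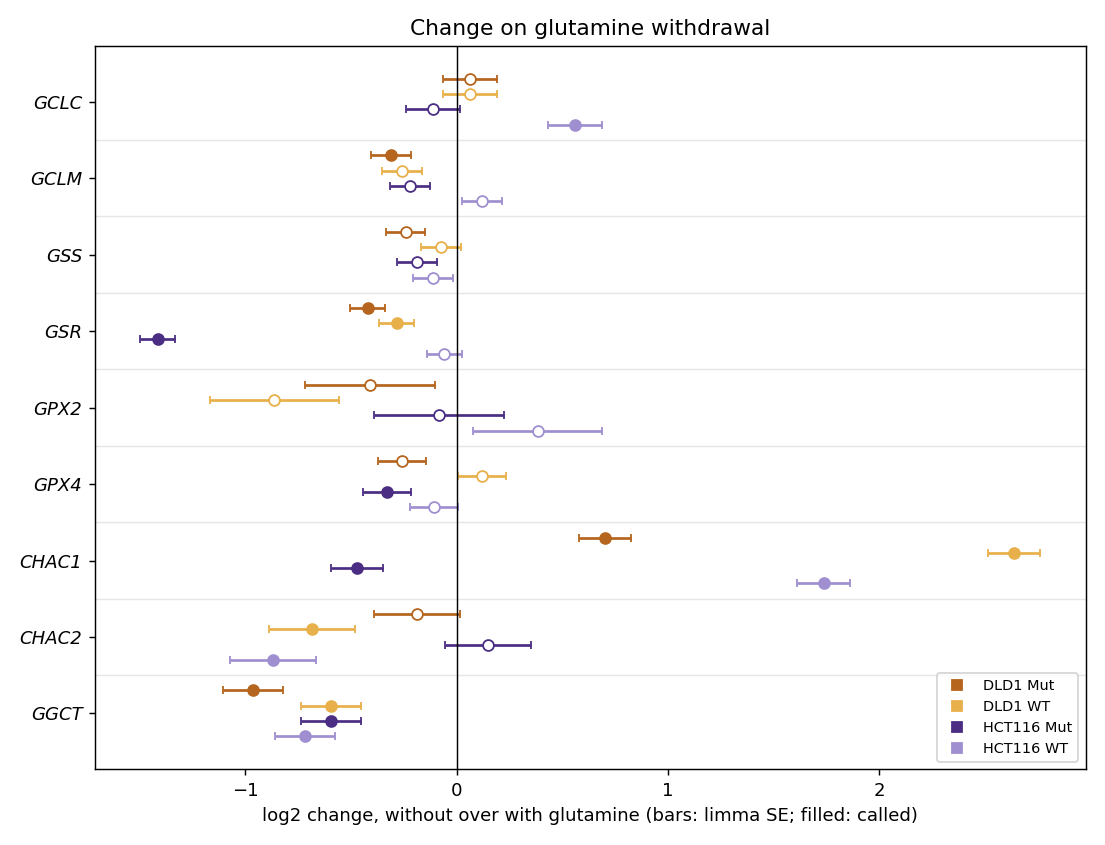
Log2 change of each gene on glutamine withdrawal in the 4 derivatives, with bars for the SE of limma and filled points for called values. CHAC1 ranges from -0.47 in HCT116 Mut cells to 2.64 in DLD1 WT cells, GGCT lies below 0 throughout, and GSR is far lower in HCT116 Mut cells than elsewhere.

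Among the synthesis genes the changes were small. GCLC had intensities of 64.6 and 60.7 in HCT116 WT cells without glutamine, against 36.8 and 49.1 with it. These arrays did not overlap, and GCLC rose by 0.56 ± 0.13 (1.47-fold, adjusted p = 0.0109). With each line fitted separately this rise was not called (limma adjusted p = 0.0619). The log2 change was 0.35 without glutamine-fed HCT116 WT replicate 1 (adjusted p = 0.0795) and 0.51 without glutamine-free replicate 1 (adjusted p = 0.0659), so the call rests on each of these arrays. In the other derivatives GCLC was not called: the log2 changes were 0.06 in DLD1 Mut, 0.06 in DLD1 WT and -0.11 in HCT116 Mut cells, with 95% intervals of -0.22 to 0.34, -0.22 to 0.34 and -0.40 to 0.17. Over the 4 derivatives GCLC averaged 0.14 ± 0.06 (adjusted p = 0.0926), and it was called at 0.19 without glutamine-fed HCT116 WT replicate 2 (adjusted p = 0.0100).

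GCLM, the modifier subunit, had log2 changes below 0 in 3 derivatives and varied least of the synthesis genes. Its intensities were 158 and 135 without glutamine and 177 and 185 with it in DLD1 Mut cells. There it fell by 0.31 on the log2 scale (SE 0.09, adjusted p = 0.0264), a call lost with each array shifted to the same median (limma adjusted p = 0.0619) or each line fitted separately (0.0761). That call was lost when either DLD1 Mut array with glutamine was left out (adjusted p = 0.0659 and 0.124), and without replicate 2 of the glutamine-free arrays, when the log2 change was -0.19 (adjusted p = 0.213). In DLD1 WT (-0.26 ± 0.09), HCT116 Mut (-0.22 ± 0.09) and HCT116 WT cells (0.12 ± 0.09) GCLM was not called. It did not overlap between the arrays without and with glutamine in any of them, which is a description and no test. In DLD1 WT cells it was called when either DLD1 Mut array without glutamine was left out of the fit (adjusted p = 0.0478). The average over derivatives was -0.17 ± 0.05 (adjusted p = 0.0122).

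GSS, which completes the molecule, had 173 and 189 in DLD1 Mut cells without glutamine, against 209 and 218 with it. In HCT116 Mut cells it had 255 and 260 without glutamine, against 275 and 313 with it. No derivative passed the test, with log2 changes from -0.24 to -0.07, but all 4 were below 0 and the average was -0.15 ± 0.05 (adjusted p = 0.0191).

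GSR, the reductase, had the largest fall of the 9 genes in any derivative. Its intensities were 388 and 390 in HCT116 Mut cells without glutamine, against 1083 and 994 with it. The arrays without glutamine were the lowest of all 16 and those with it the highest, and the change was 2.67-fold (log2 change -1.42 ± 0.08, adjusted p = 2.11e-06). In DLD1 Mut cells GSR had 659 and 691 without glutamine and 909 and 900 with it (-0.42 ± 0.08, adjusted p = 0.00268). In DLD1 WT cells the values were 700 and 664 without glutamine and 834 and 827 with it (-0.28 ± 0.08, adjusted p = 0.0280), a call that was lost when any of these 4 arrays was left out (adjusted p = 0.0664 to 0.151). The groups did not overlap in these 3 derivatives. The DLD1 WT call was also lost with quantile normalization (limma adjusted p = 0.0601), no filter on dim genes (0.0565) or each line fitted separately (0.0622). In HCT116 WT cells the values were 836 and 906 without glutamine and 922 and 891 with it, which overlapped, and the log2 change of -0.06 had a 95% interval of -0.24 to 0.13 (adjusted p = 0.703). Over the 8 groups the order of GSR levels ran from HCT116 Mut with glutamine to HCT116 Mut without it, and 3 pairs of neighbours in that order overlapped.

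GPX4, a peroxidase that reduces lipid hydroperoxides in membranes, was the steadiest of the 9, with a log2 range of 0.45 over the 16 arrays. Its intensities were 977 and 919 in HCT116 Mut cells without glutamine, against 1150 and 1236 with it. It fell there by 0.33 on the log2 scale (SE 0.11, adjusted p = 0.0466), a call close to the threshold that was lost in 12 of 16 fits with 1 array left out, those without each of the 4 HCT116 Mut arrays among them (adjusted p = 0.0578 to 0.195). In DLD1 Mut cells GPX4 had 1164 and 929 without glutamine and 1253 and 1233 with it, which was not called (-0.26 ± 0.11, adjusted p = 0.114). Without the brighter of the 2 arrays without glutamine the log2 change was -0.42 and was called (adjusted p = 0.0244). The average of GPX4 was -0.14 ± 0.06 (adjusted p = 0.0588) and was called without glutamine-fed DLD1 WT replicate 2 (adjusted p = 0.0464) or glutamine-free DLD1 Mut replicate 1 (adjusted p = 0.0124).

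GPX2, a peroxidase of the gastrointestinal epithelium, lay near the floor of the arrays. Its intensities ran from 2.27 to 4.01 without glutamine and from 2.54 to 7.74 with it. The highest value, 7.74, was that of glutamine-fed DLD1 WT replicate 1, whose other replicate had 3.79. The log2 changes were -0.41 in DLD1 Mut, -0.86 in DLD1 WT, -0.09 in HCT116 Mut and 0.38 in HCT116 WT cells. They ran both ways, and the change in DLD1 WT cells was -0.35 without the bright array.

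Of the genes of glutathione breakdown, CHAC1, CHAC2 and GGCT, only CHAC1 rose on average over the derivatives. Its intensities were 513 and 522 in DLD1 WT cells without glutamine, against 88.6 and 77.8 with it, a 6.23-fold rise (log2 change 2.64 ± 0.12, adjusted p = 8.88e-07). In HCT116 WT cells they were 422 and 393 without glutamine, against 132 and 113 with it (3.33-fold, 1.74 ± 0.12, adjusted p = 1.17e-05). The 4 arrays of WT cells with glutamine were the dimmest of all 16 for CHAC1. In DLD1 Mut cells CHAC1 had 473 and 486 without glutamine and 290 and 300 with it (1.63-fold, 0.70 ± 0.12, adjusted p = 0.00132). In HCT116 Mut cells the direction turned, with 274 and 224 without glutamine and 324 and 364 with it (-0.47 ± 0.12, adjusted p = 0.0132). With each line fitted separately this fall was not called (limma adjusted p = 0.0597). The call in HCT116 Mut cells was lost without glutamine-fed replicate 2 (-0.39, adjusted p = 0.0919) or glutamine-free replicate 2 (-0.33, adjusted p = 0.116). From high to low the 8 groups ran DLD1 WT, DLD1 Mut and HCT116 WT without glutamine, HCT116 Mut and DLD1 Mut with it, HCT116 Mut without it, and HCT116 WT and DLD1 WT with it. No neighbours in this order overlapped.

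CHAC2, whose activity in the cell is known to be slower and more constant than that of CHAC1, fell in the WT derivatives. It had 61.3 and 74.9 in DLD1 WT cells without glutamine, against 110 and 108 with it (-0.69 ± 0.20, adjusted p = 0.0288). In HCT116 WT cells it had 30.4 and 40.8 without glutamine, against 61.0 and 67.9 with it (-0.87 ± 0.20, adjusted p = 0.0121). Neither pair of groups overlapped. With each line fitted separately the DLD1 WT fall was not called (limma adjusted p = 0.0563). The DLD1 WT call was lost without either array with glutamine (adjusted p = 0.109 and 0.0929) or glutamine-free replicate 1 (-0.54, adjusted p = 0.170), and the HCT116 WT call without glutamine-fed replicate 2 (adjusted p = 0.0760) or glutamine-free replicate 1 (-0.66, adjusted p = 0.0950). In DLD1 Mut cells CHAC2 had 96.8 and 134 without glutamine and 113 and 149 with it (-0.19 ± 0.20), and in HCT116 Mut cells 54.4 and 64.0 without glutamine and 56.9 and 49.9 with it (0.15 ± 0.20). These groups overlapped, and the 95% intervals of the changes were -0.64 to 0.26 and -0.30 to 0.60. The average was -0.40 ± 0.10 (adjusted p = 0.00729). A difference between the responses of Mut and WT cells was called in neither line. It was 0.50 ± 0.29 in DLD1 (limma adjusted p = 0.461) and 1.02 ± 0.29 in HCT116 (adjusted p = 0.0511). The HCT116 value lay at the threshold: of 25 alternatives it was called in 8 and not in 17. Quantile normalization (limma adjusted p = 0.0416) and a replicate block (0.0249) were among the 8.

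GGCT fell in every derivative. Its intensities were 105 and 134 in DLD1 Mut cells without glutamine, against 242 and 221 with it (1.95-fold, -0.96 ± 0.14, adjusted p = 0.000407). In DLD1 WT cells they were 142 and 127 without glutamine and 196 and 209 with it (-0.59 ± 0.14, adjusted p = 0.0101). In HCT116 Mut cells they were 106 and 110 without glutamine and 172 and 154 with it (-0.59 ± 0.14, adjusted p = 0.00801), and in HCT116 WT cells 99.0 and 87.8 without glutamine and 170 and 138 with it (-0.72 ± 0.14, adjusted p = 0.00493). Without and with glutamine did not overlap in any derivative. The call in DLD1 WT cells was lost without glutamine-fed replicate 2 (adjusted p = 0.0605) or glutamine-free replicate 2 (adjusted p = 0.0745), and that in HCT116 Mut cells without glutamine-fed replicate 1 (adjusted p = 0.0573). The average of -0.72 ± 0.07 (adjusted p = 1.02e-05) was called in every fit with 1 array left out.

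The responses of the lines, averaged over the genotypes, differed for 2 of the 9 genes, both in the direction of a higher change in DLD1, where 10% of all genes were called higher and 8.93% lower. CHAC1 had a log2 change higher by 1.04 ± 0.12 in DLD1 than in HCT116 (adjusted p = 0.000414), and GSR one higher by 0.38 ± 0.08 (adjusted p = 0.00982). For GSR the log2 changes were -0.42 in DLD1 against -1.42 in HCT116 for Mut cells, but -0.28 in DLD1 against -0.06 in HCT116 for WT cells. The difference of the lines within a genotype was not tested. For GGCT the difference was -0.12, with a 95% interval of -0.44 to 0.19.

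The comparisons of Mut with WT cells ask which levels go with the remaining PIK3CA allele, and they share their arrays with the withdrawal comparisons, so the 2 sets of values are not independent. With glutamine, CHAC1 was higher in Mut than in WT cells of both lines. In DLD1 it had 290 and 300 in Mut cells, against 88.6 and 77.8 in WT cells (3.55-fold, 1.83 ± 0.12, adjusted p = 1.19e-05), and in HCT116 it had 324 and 364 in Mut cells, against 132 and 113 in WT cells (2.81-fold, 1.49 ± 0.12, adjusted p = 0.000160). It was the only gene of the 9 called with glutamine in HCT116, where 1.12% of all genes were called higher and 2.12% lower. In DLD1 GCLC was called too, so 2 of 9 were higher and 0 lower there, beside 2.6% and 3.2% of all genes. GCLC had 38.0 and 37.4 in DLD1 Mut cells, against 25.2 and 28.3 in WT cells, which did not overlap (0.50 ± 0.13, adjusted p = 0.0480). It was not called with each line fitted separately (limma adjusted p = 0.0549), quantile normalization (0.0639) or no filter on dim genes (0.0744). The same held with a replicate block (limma adjusted p = 0.0539) or another variance model (0.0580). The call of GCLC lay at the threshold and was lost in 14 of 16 fits with 1 array left out, those without each of the 4 DLD1 arrays with glutamine among them (adjusted p = 0.0617 to 0.214).

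Without glutamine the genotypes stood otherwise for CHAC1. In DLD1 it had 473 and 486 in Mut cells, against 513 and 522 in WT cells, a difference of -0.11 ± 0.12 with a 95% interval of -0.38 to 0.17 (adjusted p = 0.661). In HCT116 it was lower in Mut cells, with 274 and 224 against 422 and 393 in WT cells (-0.72 ± 0.12, adjusted p = 0.00196). The withdrawal response was thus lower in Mut than in WT cells, with a log2 difference of -1.94 ± 0.18 in DLD1 (adjusted p = 0.00161) and -2.21 ± 0.18 in HCT116 (adjusted p = 0.000226). CHAC1 was the only gene of the 9 called in the DLD1 interaction, where 0.255% of all genes were called higher and 0.568% lower. With each line fitted alone 3 genes were called in that interaction, and CHAC1 was among them.

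**Figure D3:**
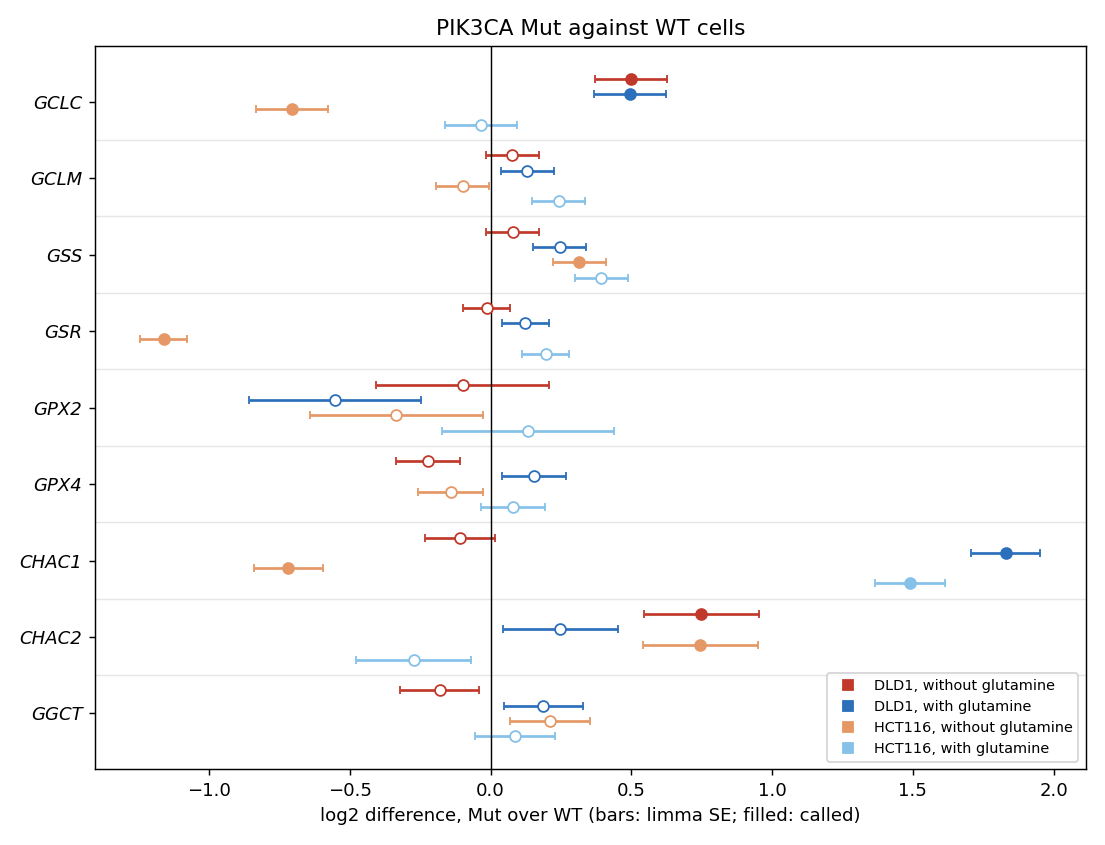
Log2 difference of Mut over WT cells for each gene, without and with glutamine in each line, with bars for the SE of limma and filled points for called values. CHAC1 lies at 1.83 and 1.49 with glutamine but at -0.11 and -0.72 without it, and GSR stands at -1.16 in HCT116 without glutamine alone.

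In HCT116 without glutamine 2 of 9 genes were higher and 3 lower in Mut cells, beside 12.3% and 12.4% of all genes, and the lower ones were GSR, CHAC1 and GCLC. GSR had 388 and 390 in Mut cells, against 836 and 906 in WT cells (2.24-fold, -1.16 ± 0.08, adjusted p = 1.30e-05). With glutamine GSR had 1083 and 994 in Mut cells, against 922 and 891 in WT cells (0.20 ± 0.08, adjusted p = 0.266), which was not called. The interaction of GSR was -1.36 ± 0.12 in HCT116 (adjusted p = 0.000260) and -0.14 ± 0.12 in DLD1 (adjusted p = 0.643). GCLC had 37.9 and 38.9 in HCT116 Mut cells, against 64.6 and 60.7 in WT cells (-0.71 ± 0.13, adjusted p = 0.00255). Its interaction of -0.67 ± 0.18 (adjusted p = 0.0436) was lost in 15 of 16 fits with 1 array left out (adjusted p up to 0.116), and it was -0.46 without glutamine-fed HCT116 WT replicate 1. The GCLC interaction was also not called with each line fitted separately (limma adjusted p = 0.150), no filter on dim genes (0.0683) or another variance model (0.0522). In the HCT116 interaction 0 of 9 genes were called higher and 3 lower, beside 4.75% and 4.75% of all genes.

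The genes that were higher in HCT116 Mut cells without glutamine were CHAC2 and GSS. CHAC2 had 54.4 and 64.0 in Mut cells, against 30.4 and 40.8 in WT cells (0.75 ± 0.20, adjusted p = 0.0215), a call lost without replicate 2 of Mut (0.63, adjusted p = 0.130) or replicate 1 of WT cells (0.53, adjusted p = 0.156). GSS had 255 and 260 in Mut cells, against 208 and 206 in WT cells (0.32 ± 0.09, adjusted p = 0.0326), which was lost without any of these 4 arrays (adjusted p = 0.0928 to 0.126). The GSS call was also lost with quantile normalization (limma adjusted p = 0.0536), no filter on dim genes (0.0599) or each line fitted separately (0.0945). With glutamine the difference of GSS was 0.39 ± 0.09 (adjusted p = 0.0520). The HCT116 interaction of CHAC2, 1.02 ± 0.29, missed the threshold (adjusted p = 0.0511) and passed it when either DLD1 Mut array without glutamine (adjusted p = 0.0437) or glutamine-free HCT116 WT replicate 2 (1.23, adjusted p = 0.0425) was left out.

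In DLD1 without glutamine 2 of 9 genes were higher in Mut cells and 0 lower, beside 4.36% and 5.91% of all genes. CHAC2 had 96.8 and 134 in Mut cells, against 61.3 and 74.9 in WT cells (0.75 ± 0.20, adjusted p = 0.0420), and GCLC 40.8 and 37.9 in Mut cells, against 27.4 and 28.4 in WT cells (0.50 ± 0.13, adjusted p = 0.0331). Neither overlapped between the genotypes. With each line fitted separately CHAC2 was not called (limma adjusted p = 0.0878). With no filter on dim genes neither gene was called (limma adjusted p = 0.0576 for CHAC2 and 0.0523 for GCLC). The call of CHAC2 was lost in 11 of 16 fits with 1 array left out, and the difference was 0.51 without replicate 2 of Mut cells (adjusted p = 0.244). The call of GCLC was lost without any of the 4 arrays compared (adjusted p = 0.0867 to 0.166).

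Between the lines with glutamine, averaged over the genotypes, 2 of the 8 genes other than GPX2 were higher and 4 lower in DLD1, beside 24.5% and 22.5% of all genes. CHAC2 was higher in DLD1 by 1.02 ± 0.14 on the log2 scale (2.03-fold, adjusted p = 0.000141), with 113 and 149 in DLD1 Mut and 110 and 108 in DLD1 WT cells, against 56.9 and 49.9 in HCT116 Mut and 61.0 and 67.9 in HCT116 WT cells. All 4 DLD1 arrays lay above all 4 of HCT116. GGCT was also higher (0.45 ± 0.10, adjusted p = 0.00316), and GSS (-0.38 ± 0.07, adjusted p = 0.000667), GCLC (-0.41 ± 0.09, adjusted p = 0.00337) and CHAC1 (-0.39 ± 0.09, adjusted p = 0.00371) were lower. GSR was lower by 0.16 (SE 0.06, adjusted p = 0.0437), which was lost in 13 of 16 fits with 1 array left out. GPX2 had 4.14 and 3.29 in DLD1 Mut and 7.74 and 3.79 in DLD1 WT cells, against 2.55 and 3.13 in HCT116 Mut and 2.61 and 2.54 in HCT116 WT cells. The DLD1 arrays lay above those of HCT116, but these are the arrays through which GPX2 passed the filter on dim genes, so the difference was not counted.

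For each gene the tested genes with the most similar pattern were sought by Pearson's r of the log2 means of the 8 groups, with no test, since the 8 points share 2 lines and 4 derivatives and the genes were picked for their r. For CHAC1 they were MARS1, the cytosolic methionyl-tRNA synthetase (r = 0.954), PXK (0.936) and MAGEB17 (0.923). A high r says nothing on size: their group means spanned 0.73, 0.87 and 0.27 on the log2 scale, against 2.64 for CHAC1. CHAC2 had ALG14, a subunit of an N-glycosylation enzyme (0.982), AMD1, the S-adenosylmethionine decarboxylase of polyamine synthesis (0.977), and HSD17B7P2 (0.974), a pseudogene whose probe set may share signal with its parent gene. GSR had WASHC5, a subunit of the endosomal WASH complex (0.978), IFT122 of intraflagellar transport (0.957) and MIR4688 (0.956). GGCT had CSTF2, a cleavage factor of mRNA 3′ ends (0.987), SETMAR (0.983) and SDC1, the proteoglycan syndecan-1 (0.980). The first neighbours of GCLC, GCLM, GSS and GPX4 were STH (0.978), FHOD3 (0.977), SDR42E2 (0.987) and MAPK3 (0.964). The group means of SDR42E2 spanned only 0.33 on the log2 scale, against 0.78 for GSS.

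Other genes of the pathway were counted by list on the average withdrawal response, where 24.3% of all genes were called higher and 23.5% lower. Of 7 tested genes of precursor amino acid supply 3 rose and 2 fell (median log2 change 0.04). SLC7A11, the cystine antiporter subunit, rose by 1.10 ± 0.05 on average (adjusted p = 6.71e-08), with log2 changes of 1.21, 2.02, 0.41 and 0.77 in DLD1 Mut, DLD1 WT, HCT116 Mut and HCT116 WT cells, all called. Its partner SLC3A2 rose by 0.47 ± 0.04, and the glutamate transporters SLC1A3 (-0.78 ± 0.08) and SLC1A1 (-0.70 ± 0.08) fell. SLC1A1 did not fall in every derivative: it rose in HCT116 WT cells (0.54) and fell in HCT116 Mut cells (-1.55), and its HCT116 interaction was called (-2.09).

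Of 10 other peroxidases, glutaredoxins and thioredoxin reductases 3 rose and 5 fell (median -0.14). PRDX6, the peroxiredoxin that draws on glutathione, fell by 0.83 on the log2 scale on average (SE 0.05, adjusted p = 1.65e-07) and was called lower in each of the 4 derivatives. The glutaredoxins GLRX3 (-0.64 ± 0.09) and GLRX5 (-0.34 ± 0.05) fell and the mitochondrial thioredoxin reductase TXNRD2 rose (0.38 ± 0.06). Of 15 genes listed as glutathione transferases, GSTCD by its domain only, 1 rose, 7 fell and 7 were not called (median -0.22). MGST1 (-0.59 ± 0.04), GSTCD (-0.59 ± 0.05), GSTP1 (-0.27 ± 0.05) and GSTO1 (-0.59 ± 0.12) were among those that fell. The GSTM and GSTT genes have near-identical copies, and their values are uncertain. Of 8 genes of the gamma-glutamyl cycle and of dipeptide breakdown 1 rose and 4 fell (median -0.14). The leucine aminopeptidase LAP3, which can split cysteinylglycine, fell in each derivative (average -0.71 ± 0.05), as did the prolidase PEPD (-0.60 ± 0.05), while GGT5 (-0.39 ± 0.07) fell and GGACT rose (0.39 ± 0.07) on average.

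**Figure D4:**
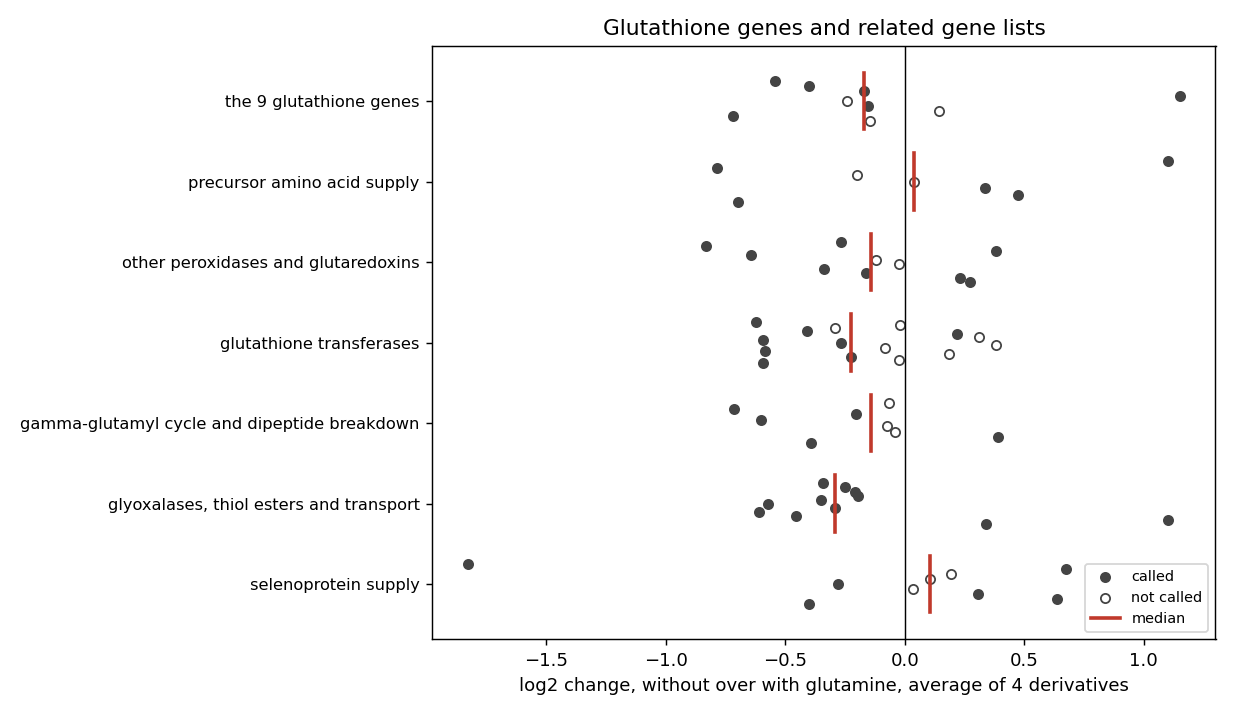
Average log2 change on glutamine withdrawal of each tested gene of the 9 glutathione genes and of 6 other lists of the pathway, with filled points for called genes, open points for genes not called and a line at the median of each list. CHAC1 at 1.15 and SLC7A11 at 1.10 lie far above their lists' medians of -0.17 and 0.04.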

How the data were processed

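The deposited values are intensities of 53617 probe sets on 16 arrays, linear in scale and with near-equal distributions. The labelling was Affymetrix whole-transcript, per the labels' protocols, and the method of normalization is not given in the sources used here, so neither its effect nor detection above background could be judged. Here the log2 of the deposited intensities was taken with no pseudocount. Gene symbols came from the platform's annotation, 90 of them updated by Entrez ID: 23871 probe sets had 1 symbol, 1842 several and 27904 none. Only the first kind was used, with the brightest per gene, and the upper 70% of genes by mean log2 intensity were tested. The fit of 8 group means (lmFit and eBayes of limma 3.58.1, run under R 4.3.3) had 8 residual degrees of freedom and 2.49 prior ones and was tested on simulated data. The number of arrays limits the precision. A fold is the size of a log2 change turned back to the linear scale. All 9 members are named in every comparison, up to 4 called genes of each other list with the smallest adjusted p, and the 3 genes most like each member, of which the text gives a part. The members, lists and tests were chosen with earlier results of these data known. Alternatives were other filters, scalings, probe set rules, an added offset, a replicate block, another variance model, separate lines and 1 array left out.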

Additional observations from a re-analysis of the deposited data

Results flagged for a closer look

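The withdrawal response of 3 of the 9 genes differed between groups by a test of the difference itself. In the difference of the lines 10% of all tested genes were called higher and 8.93% lower. In the DLD1 interaction of genotype and glutamine these shares were 0.255% and 0.568%, and in that of HCT116 4.75% and 4.75%. For CHAC1 the log2 change was higher in DLD1 than in HCT116 by 1.04 ± 0.12 (limma adjusted p = 0.000414), and lower in Mut than in WT cells, with a difference of -1.94 in DLD1 (adjusted p = 0.00161) and of -2.21 in HCT116 (adjusted p = 0.000226). For GSR it was higher in DLD1 than in HCT116 by 0.38 ± 0.08 (adjusted p = 0.00982) as an average over the genotypes, with -0.42 in DLD1 Mut against -1.42 in HCT116 Mut cells but -0.28 in DLD1 WT against -0.06 in HCT116 WT cells. In HCT116 the GSR response was lower in Mut than in WT cells, with a difference of -1.36 (adjusted p = 0.000260). For GCLC in HCT116 the difference of Mut and WT responses was -0.67 (adjusted p = 0.0436), which was lost in 15 of 16 fits with 1 array left out. This difference was also not called with each line fitted separately (limma adjusted p = 0.150).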

How the results depend on the processing

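Of 45 called values of the 9 genes, 28 were called under every alternative run. The 45 include GPX2 between the lines, which is not taken as a result and is not among the 28. Of 2885 values compared, those of GPX2 included, none changed sign with a call on either side, 126 lost and 32 gained a call. Numbers of called genes within 1.5 times the reported ones were 281 of 322. Those outside, by comparison, were as follows. HCT116 WT withdrawal called 3189 genes, 2070 with lines fitted separately and 2054 to 3140 with 1 array left out. Mut over WT with glutamine in DLD1 called 910, 1379 with eBayes trend and robust, 599 with separate lines and 459 to 887 with 1 array left out. In HCT116 it called 507, 834 with 8 added, 963 with trend and robust, 89 with separate lines and 199 to 488 with 1 array left out. Without glutamine in DLD1 it called 1610, and 709 to 1563 with 1 array left out. The DLD1 interaction called 129 genes, 46 with no filter, 328 above the median level, 475 with 8 added, 602 with trend and robust, 3 with separate lines and 15 to 97 with 1 array left out. The HCT116 interaction called 1488, 430 with separate lines and 842 to 1396 with 1 array left out. The lowest of each range came without an array of the groups compared, and separate lines leave fewer arrays to a fit. Other causes were not tested. Replicate numbers showed no clear pairing of the arrays: same-numbered deviations correlated at -0.036 to 0.033 over 28 pairs of groups. Of 16 arrays 12 correlated best with their own number. The deviations of 2 arrays from their mean mirror each other, so both arrays of a group give the same answer in that count. These values come from the data and not the design. The replicate block gave 76 genes in the DLD1 interaction in place of 129. Quantile scaling shifted the median of all genes by at most 0.024.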

Other observations

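Genes around glutathione that were not described above moved in both directions on average glutamine withdrawal. Of 11 tested glyoxalases, thiol ester enzymes and transporters of glutathione or its conjugates 2 rose and 9 fell, with a median log2 change of -0.29, beside 24.3% and 23.5% of all genes called higher and lower. ABCC3, an exporter of conjugates, rose in every derivative (average 1.10 ± 0.11, limma adjusted p = 1.48e-05), while the related exporter ABCC4 fell in every derivative (-0.57 ± 0.05) and ABCC1 on average (-0.61 ± 0.06). SLC25A39, the carrier that brings glutathione into mitochondria, had nearly equal falls of 0.50, 0.43, 0.46 and 0.43 on the log2 scale in DLD1 Mut, DLD1 WT, HCT116 Mut and HCT116 WT cells.

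Of 9 genes that supply selenium to selenoproteins such as GPX4, 3 rose, 3 fell and 3 were not called (median 0.11). LRP8, a receptor that takes up selenoprotein P, had the largest change of the list, with log2 changes of -2.62, -2.30, -1.65 and -0.74 in DLD1 Mut, DLD1 WT, HCT116 Mut and HCT116 WT cells, all called (average -1.83 ± 0.09, adjusted p = 7.84e-08). SEPSECS, which makes selenocysteinyl-tRNA, rose (0.64 ± 0.06). The selenophosphate synthetases went opposite ways, SEPHS1 at -0.40 ± 0.04 and SEPHS2 at 0.31 ± 0.04.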
